A study of Mus musculus with 23 samples.

Results

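The naive pluripotency factors are the transcription factors that hold mouse embryonic stem cells (ESCs) in the undifferentiated state of the early epiblast. The 10 genes described here, out of 37310 in the count files, were chosen by their symbols: *Pou5f1*, *Sox2*, *Nanog*, *Klf2*, *Klf4*, *Esrrb*, *Tfcp2l1*, *Zfp42*, *Tbx3* and *Nr5a2*. All 10 were matched, *Tfcp2l1* through its older symbol *Tcfcp2l1*, and all 10 were among the 14346 genes that passed the filter on low counts, a level above 1 on the counts-per-million (CPM) scale in at least 3 libraries. Their promoters, from 2 kb upstream to 500 bases downstream of the gene start, were also searched for peaks of Zbtb11, a zinc-finger transcription factor.

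All cells came from the E14 ESC line and were grown without feeder cells on gelatin, in medium with serum and LIF. RNA-seq covered 3 groups of 3 replicates, each collected after 48 h. In the *Zbtb11* KO group, Zbtb11lox/lox cells with an ERt2-Cre transgene at the Rosa26 locus received 250 nM 4-hydroxytamoxifen (4OHT), which activates the recombinase. In the EtOH control, the same cells received only the carrier ethanol. In the 4OHT control, Zbtb11WT/WT cells with an unmodified Rosa26 locus received 250 nM 4OHT, so this group differs from the EtOH control in genotype and cell line as well as in treatment, and these cannot be told apart. The floxed line was derived from colonies of single cells, and replicates of a group share 1 line. ChIP-seq covered 4 libraries of the Zbtb11 antibody on Zbtb11WT/WT cells, 3 FLAG libraries on Zbtb11FLAG/FLAG cells, in which the endogenous protein is tagged, and 2 FLAG control libraries on cells without the tag. RNA-seq libraries held 14301457 to 23100544 counts on genes in the 4OHT control, against 16644385 to 23876604 in the other groups, and the least abundant factor, *Nr5a2*, was still covered by 1019 to 2249 counts. The deleted gene has no row of its own. Its reads fall into the record named *Rpl24*, which was at 355 to 386 CPM in the EtOH control and 358 to 363 CPM in *Zbtb11* KO cells, so that the deletion could not be checked in these counts.

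In ESCs, Oct4 (encoded by *Pou5f1*), Sox2 and Nanog form the core of the network and bind many of the same enhancers, among them their own. The Klf proteins, Esrrb, Tfcp2l1, Nr5a2 and Tbx3 join this core in the naive state, several of them downstream of LIF and Stat3 or of Wnt signalling, and they can partly stand in for each other. *Zfp42*, also called *Rex1*, is used as a reporter of the naive state. Most of these genes, with the exceptions of *Pou5f1* and *Sox2*, are switched off early when the cells leave this state.

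In mm9 coordinates the core genes lie on chromosome 17 (*Pou5f1*, 35642982 to 35647721, plus strand), chromosome 3 (*Sox2*, 34548927 to 34551383, plus) and chromosome 6 (*Nanog*, 122657507 to 122664651, plus). *Klf2* (74842932 to 74845555, plus) and *Zfp42* (44380422 to 44392363, minus) share chromosome 8, and *Tfcp2l1* (120524522 to 120581744, plus) and *Nr5a2* (138740161 to 138857004, minus) share chromosome 1. *Klf4* is on chromosome 4 (55540013 to 55545347, minus), *Tbx3* on chromosome 5 (120120678 to 120134733, plus) and *Esrrb* on chromosome 12 (87702067 to 87862578, plus).

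All 10 factors were expressed in every library. Per kb of exon, the scale on which genes can be compared, median levels over the 9 libraries ran from 335 CPM per kb for *Pou5f1* down to 21.1 CPM per kb for *Nr5a2*, and *Pou5f1* was higher than 99.2% and *Nr5a2* higher than 80.8% of all tested genes. *Zfp42* (279 CPM per kb), *Nanog* (254), *Sox2* (212) and *Klf2* (168) followed *Pou5f1*. The ranges of neighbouring genes over the libraries overlapped along this whole first tier. *Esrrb* (90.6 CPM per kb) and *Klf4* (88.4) formed a second tier, with ranges that overlapped each other but neither *Klf2* above nor *Tfcp2l1* below. *Tfcp2l1* (33.2 CPM per kb), *Tbx3* (28.2) and *Nr5a2* (21.1) were the lowest, again with overlapping neighbours. Several of these levels are uncertain, because parts of the exons recur elsewhere in the genome (stretches of 100 bases or more, 95% identity or more). Such stretches cover 70.8% of the exon bases of *Nanog*, 78.4% of *Zfp42*, 24.4% of *Klf4* and 17.1% of *Pou5f1*, and none was found for the other 6 factors. *Tfcp2l1* shares 130 exon bases with a U1 record on the same strand, and *Tbx3* shares 115 with *Gm2301* on the opposite strand.

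**Figure D1:**
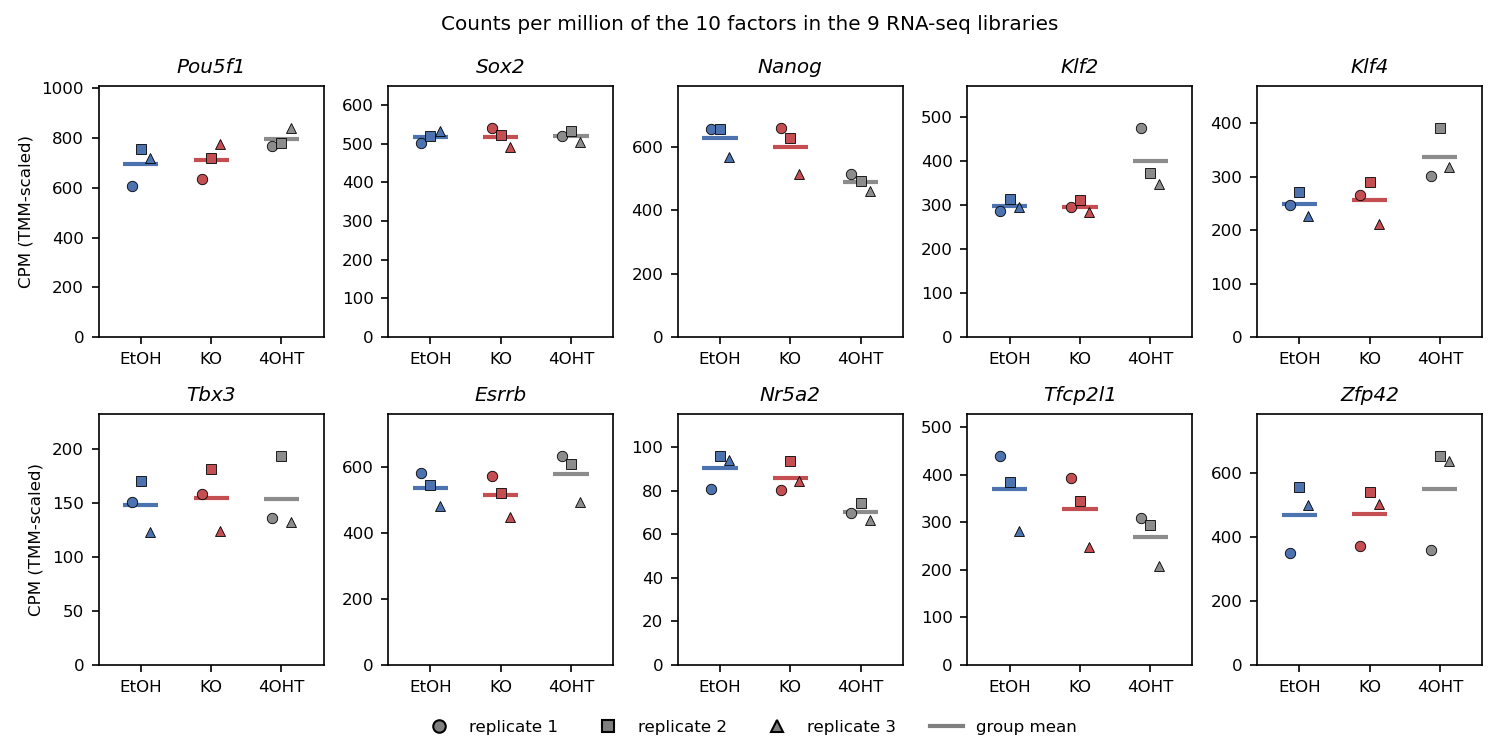
Level in CPM, scaled with TMM factors for library composition, of each factor in the 9 RNA-seq libraries. The horizontal axis gives the group, symbols mark the replicate number and bars the group mean. EtOH control and Zbtb11 KO libraries overlap in every panel, while Nanog and Nr5a2 lie lower, and Pou5f1, Klf2 and Klf4 higher, in all 3 libraries of the 4OHT control than in all 3 of the EtOH control.

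The first comparison, *Zbtb11* KO against EtOH control cells, asks what loss of Zbtb11 did in the same cell line. No difference was detected for any of the 10 factors. By edgeR's quasi-likelihood test, 0 of 10 passed an adjusted p (Benjamini-Hochberg, over all genes) of 0.05, where 0.899% of all tested genes did, and 0 of 10 had an unadjusted p under 0.05, where 2.8% of all tested genes did. DESeq2 also called 0, as did edgeR with the replicate number as a block (background 2.25%), with replicates 2 and 3 alone (background 1.5%) and with both (background 2.27%). Log2 fold changes ran from -0.17 to 0.06, and the EtOH control and *Zbtb11* KO libraries overlapped for all 10 genes, against 7.21% of tested genes without overlap.

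Among the core factors, *Pou5f1* was at 606, 755 and 719 CPM in EtOH control replicates 1, 2 and 3 and at 635, 720.0 and 777 CPM in the matching *Zbtb11* KO libraries. Replicate 1 was the lowest on both sides, and KO cells were at 1.02-fold of the control (95% confidence interval 0.869 to 1.21). *Sox2* was at 501, 519.7 and 532 CPM in the EtOH control and 541, 522 and 491 CPM in KO cells, a fold of 1.00 (0.901 to 1.11), the narrowest interval of the 10. *Nanog* was at 656, 657 and 569 CPM against 659.7, 628 and 514 CPM, a fold of 0.958 (0.81 to 1.13), with replicate 3 the lowest on both sides.

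The Krüppel-like factors, which bind with the core at many naive enhancers, were also close between the groups. *Klf2* was at 286, 313 and 295 CPM in the EtOH control and at 295, 311 and 283 CPM in KO cells (fold 0.994, interval 0.832 to 1.19). *Klf4* was at 246, 271 and 227 CPM against 266, 290.3 and 212 CPM (fold 1.03, 0.828 to 1.29). For *Tbx3*, a T-box factor that acts beside them, the values were 151, 170.3 and 123 CPM against 158, 181 and 124 CPM. In all 3 replicate numbers *Tbx3* was slightly higher in KO cells, with a fold of 1.04 (0.773 to 1.41).

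The orphan nuclear receptors were close too. *Esrrb*, a target of Wnt signalling through Tcf7l1 and a close partner of Nanog, was at 582, 548 and 483 CPM in the EtOH control and 574, 522 and 449 CPM in KO cells (fold 0.957, interval 0.785 to 1.17). *Nr5a2*, which can bind regulatory DNA of *Pou5f1*, was at 80.8, 96.2 and 94.3 CPM against 80.2, 93.6 and 84.5 CPM (fold 0.952, 0.819 to 1.11). Both were lower in KO cells within each replicate number, by small amounts.

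*Tfcp2l1*, a factor downstream of LIF and Stat3, had the largest estimate. It was at 440.3, 385 and 282 CPM in the EtOH control and 394, 344 and 248 CPM in KO cells, lower by a log2 difference of -0.16, -0.16 and -0.18 within replicates 1, 2 and 3. Its fold was 0.891 (interval 0.63 to 1.26, adjusted p = 1), and with the replicate number as a block 0.89 (0.827 to 0.957, unadjusted p = 0.0034, adjusted p = 0.118), which still missed the threshold. A difference in the same direction within all 3 replicate numbers was seen for 4 of the 10 factors, and for 35.9% of all tested genes. *Zfp42* was at 351, 558 and 501 CPM against 373, 541 and 503 CPM, so that it differed more between replicate numbers than between groups (fold 1.01, 0.676 to 1.5).

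With the replicate number as a block, the intervals narrowed, and those of the 10 factors all lay between 0.827-fold and 1.14-fold of the EtOH control. When counts of 14193 genes were simulated for this comparison, the test without the block recovered 76% of the genes given a log2 change of 1 and 98% of those given a log2 change of 2. Smaller changes were not simulated, and the simulated counts had no effect of the replicate number. Recovery of changes as small as these estimates was therefore not tested.

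**Figure D2:**
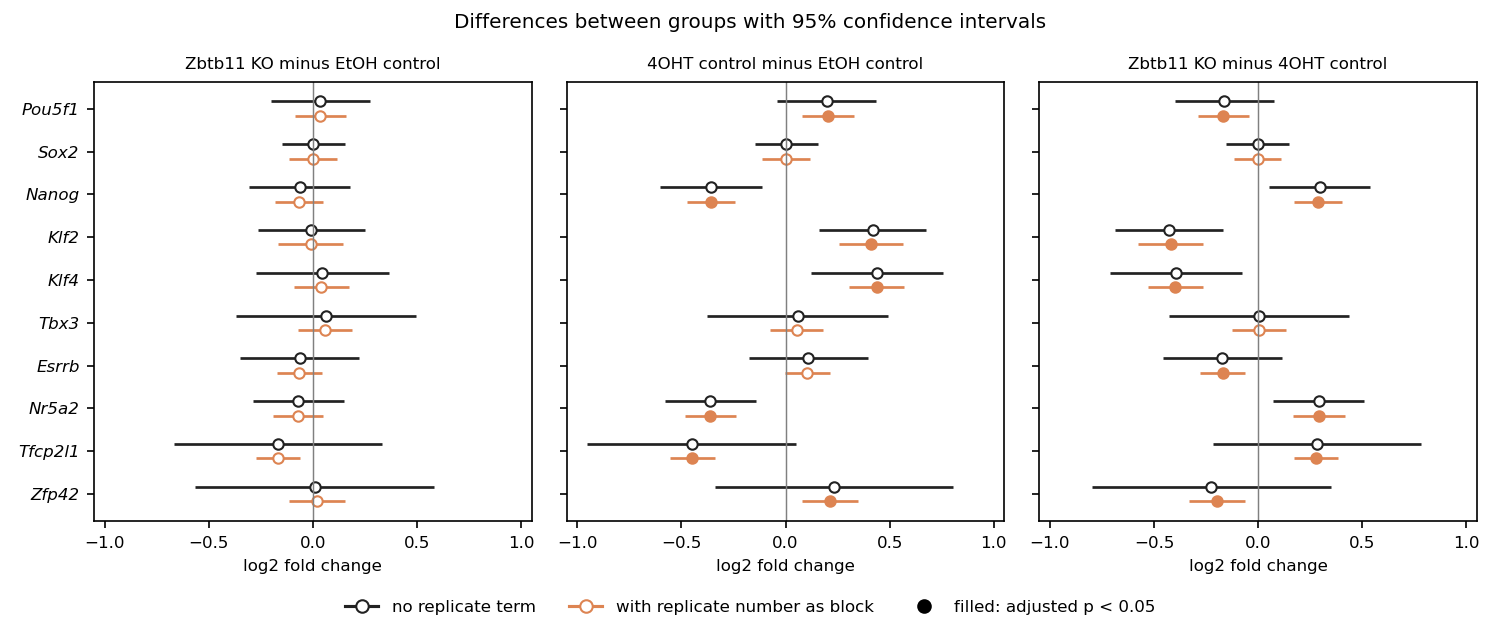
Log2 fold change (horizontal axis) of each factor in the 3 comparisons, with 95% confidence intervals, from edgeR with no term for the replicate number (black) and with the replicate number as a block (orange). Filled points passed an adjusted p of 0.05: none on the left, 7 orange points in the middle and 8 on the right.

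The second comparison, the 4OHT control against the EtOH control, was made in the study to see what 4OHT does without the floxed allele, but it also sets a wild-type line beside the engineered one. Here most factors passed the threshold only when replicates were compared number by number, with the replicate number as a block. No label pairs the samples, and numbers 2 and 3 were not resolved as pairs by their correlations. Without the block, 0 of 10 passed the threshold with edgeR (background 4.06%) and 4 had an unadjusted p under 0.05 (background 18%). DESeq2 called *Nanog*, *Klf2* and *Nr5a2*, and its share over all tested genes was not counted. With the replicate number as a block, 7 of 10 passed, where 33.6% of all tested genes did: *Pou5f1*, *Klf2*, *Klf4* and *Zfp42* were higher in the 4OHT control (4 of 10, background 17%), and *Nanog*, *Tfcp2l1* and *Nr5a2* lower (3 of 10, background 16.5%). With replicates 2 and 3 alone and no block, 5 of 10 passed (background 17.1%): *Nanog*, *Klf2*, *Klf4*, *Zfp42* and *Nr5a2*. Those replicates with the block gave 6 of 10 (background 27.6%). In a count that needs no model, the libraries of the groups did not overlap for 5 factors, against 21.7% of all tested genes. Of these, 3 were higher (background 11.2%) and 2 lower (background 10.5%). The direction was the same in all 3 replicate numbers for 8 of 10 factors, against 57.2% of all tested genes.

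Folds and intervals of the factors in this comparison are from the fit with the block, where all intervals lay between 0.681-fold and 1.48-fold. With no block they were wider, between 0.517-fold and 1.75-fold. *Klf4* and *Klf2* were higher. *Klf4* was at 300.3, 391 and 317 CPM in 4OHT control replicates 1, 2 and 3, each above all EtOH control libraries, and its fold was 1.35 (interval 1.24 to 1.48, adjusted p = 2.3e-05 with the block, 0.132 without). *Klf2* was at 475, 374 and 348 CPM, again above every EtOH control library, with a fold of 1.33 (1.19 to 1.48, adjusted p = 0.000261 with the block, 0.0801 without). Replicate 1 of the 4OHT control stood apart here, with a log2 difference from EtOH control replicate 1 of 0.73, against 0.26 and 0.23 in replicates 2 and 3. Without that library the log2 fold change of *Klf2* was 0.28 in place of 0.42 in the fit with no block. *Tbx3*, at 136, 194 and 132 CPM, overlapped the EtOH control (adjusted p = 0.534 with the block), though it passed with the block when 4OHT control replicate 1 was left out (log2 fold change 0.15, adjusted p = 0.0268).

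Of the core factors, *Nanog* was lower, at 515, 494 and 459.6 CPM, all below the EtOH control. Its fold was 0.781 (0.722 to 0.846, adjusted p = 5.05e-05 with the block, 0.11 without). *Pou5f1* was higher, at 766, 779 and 840.5 CPM, with a fold of 1.15 (1.06 to 1.25, adjusted p = 0.0124 with the block, 0.385 without). This call for *Pou5f1* was lost with the block without EtOH control replicate 1 (adjusted p = 0.0991), EtOH control replicate 3 (0.0923) or 4OHT control replicate 1 (0.0522). *Sox2*, at 520.2, 532 and 505 CPM, had a fold of 1.00 with the block (0.926 to 1.08). Estimates with the block were thus lower for *Nanog*, higher for *Pou5f1* and near 1 for *Sox2*.

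*Tfcp2l1* was at 308, 295 and 207 CPM and *Nr5a2* at 69.9, 74.6 and 66.6 CPM. *Tfcp2l1* was lower than the EtOH control library of the same number throughout, with differences of -0.51, -0.38 and -0.44 on the log2 scale. Replicate 3 of the EtOH control (282 CPM) was nevertheless below replicates 1 and 2 of the 4OHT control. The fold of *Tfcp2l1* was 0.734 (0.681 to 0.79, adjusted p = 1.26e-06 with the block, 0.338 without). *Nr5a2* had a fold of 0.778 (0.715 to 0.847, adjusted p = 8.06e-05 with the block, 0.0768 without), and its groups did not overlap. *Esrrb*, the other receptor, was at 636, 609 and 495 CPM with a fold of 1.08 (0.997 to 1.16, adjusted p = 0.129 with the block).

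*Zfp42* was at 361, 656 and 640.2 CPM, a fold of 1.16 (1.06 to 1.27, adjusted p = 0.0147 with the block, 0.719 without). The log2 difference was 0.04 in replicate 1 and 0.23 and 0.35 in replicates 2 and 3. Its call with the block was lost without EtOH control replicate 2 (adjusted p = 0.052) or 3 (0.111) and without 4OHT control replicate 2 (0.0852) or 3 (0.114). In all 6 fits that kept the block and left out 1 library of these groups, 5 factors were called: *Nanog*, *Klf2*, *Klf4*, *Tfcp2l1* and *Nr5a2*. The share of all tested genes called in all 6 was not counted, and the block with all libraries called 33.6%.

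Where a gene lies bears on this comparison. The wild-type and the floxed line differed over whole stretches of chromosomes, so that each factor is given beside its neighbours. Over the 758 tested genes of chromosome 8, which carries *Klf2* and *Zfp42*, the median log2 fold change was 0.26, and it lay between 0.20 and 0.31 in each 20 Mb stretch. On chromosome 6, which carries *Nanog* at 122657507 to 122664651 of mm9, medians were between -0.06 and 0.02 from the start to 100 Mb and between -0.61 and -0.52 beyond it. The 18 other chromosomes had medians between -0.04 and 0.02, leaving out Y and the 10 mitochondrial genes (-0.13). In *Zbtb11* KO against EtOH control cells, both from the floxed line, chromosomes 6 and 8 had medians of -0.01 and 0.00. Genes of the Y chromosome held 2893 to 5463 counts in the 4OHT control libraries and 0 to 2 counts in those of the floxed line. These values show a difference between lines, and whether copy number differed was not tested.

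Set beside the tested genes within 10 Mb, *Nanog* stood higher. Its own log2 fold change was -0.36 while the 175 genes around it had a median of -0.56, so that it was 0.20 above its surroundings. *Klf2* (0.42) stood 0.15 above the median of 151 neighbours (0.27). *Zfp42* (0.23) stood 0.03 above its 63 neighbours (0.20). For these 3 factors, a difference of the gene and of its chromosome region cannot be told apart by the test above. The other called factors lie where neighbours had medians near 0, and subtracting these left 0.44 for *Klf4*, -0.35 for *Nr5a2*, -0.45 for *Tfcp2l1* and 0.17 for *Pou5f1*.

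**Figure D3:**
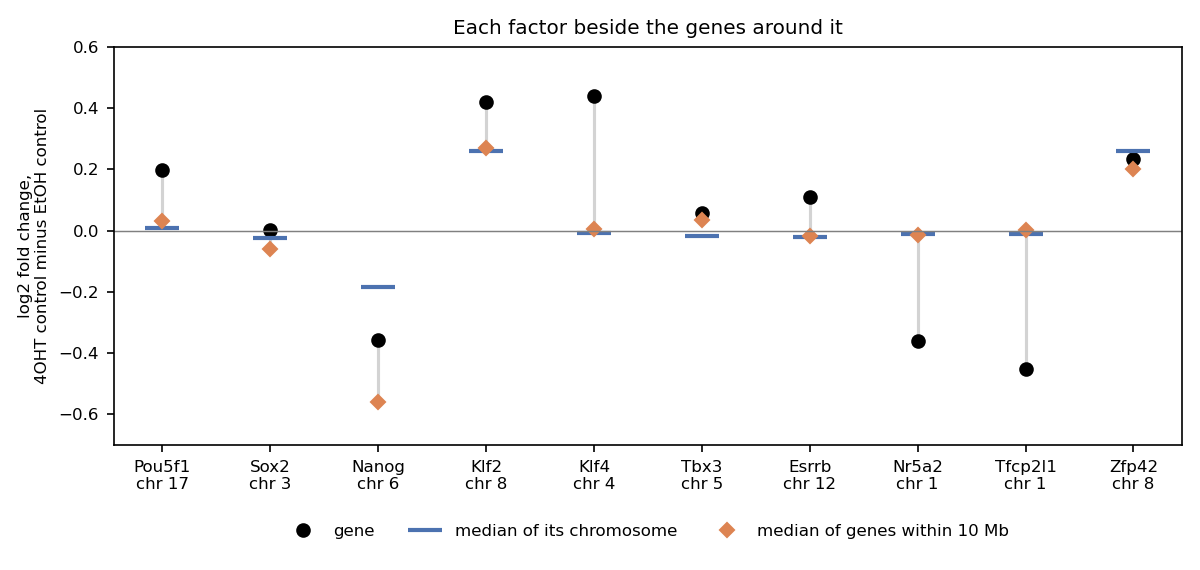
Log2 fold change of 4OHT control over EtOH control libraries (vertical axis) for each factor (black), beside the median of its chromosome (blue) and of the tested genes within 10 Mb (orange). Nanog, Klf2 and Zfp42 lie in regions with medians of -0.56, 0.27 and 0.20, and the regions of the other 7 factors have medians between -0.06 and 0.04.

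The third comparison, *Zbtb11* KO cells against the 4OHT control, holds the drug constant and differs in genotype and line. It shares the 4OHT control with the second comparison and the KO libraries with the first, so it is no independent view. With no block 0 of 10 passed (background 6.45%) and 4 had an unadjusted p under 0.05 (background 19.2%). DESeq2 called *Klf2*, again with no share over all tested genes counted. With the replicate number as a block 8 of 10 passed (background 34.9%), 3 of them higher (background 16.9%) and 5 lower (background 18.1%) in KO cells. With replicates 2 and 3 alone 4 of 10 passed with no block (background 18.7%) and 7 of 10 with it (background 29.5%). Libraries did not overlap for 3 factors, against 22.9% of all tested genes, with *Nr5a2* higher (background 11.1%) and *Klf2* and *Klf4* lower (background 11.8%).

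With the block, *Klf2* had a fold of 0.747 (0.671 to 0.832) in KO cells relative to the 4OHT control, *Klf4* of 0.759 (0.692 to 0.832) and *Esrrb* of 0.888 (0.824 to 0.958, adjusted p = 0.0149). *Nanog* was higher, with a fold of 1.22 (1.13 to 1.32), as were *Nr5a2* (1.22, 1.12 to 1.33) and *Tfcp2l1* (1.21, 1.13 to 1.31). *Pou5f1* (0.891, 0.817 to 0.971, adjusted p = 0.0348) and *Zfp42* (0.873, 0.795 to 0.959, adjusted p = 0.0232) were lower. *Sox2* and *Tbx3* had folds of 0.998 (0.922 to 1.08) and 1.00 (0.917 to 1.1). With the block and 1 library left out at a time, 5 factors were called in all 6 fits, *Nanog*, *Klf2*, *Klf4*, *Tfcp2l1* and *Nr5a2*. The share of all tested genes called in all 6 was not counted here either, and the block with all libraries called 34.9%. *Pou5f1* lost the call without KO replicate 1 (adjusted p = 0.132) or 2 (0.151) and without 4OHT control replicate 1 (0.136) or 3 (0.0505). *Esrrb* lost it without KO replicate 2 (0.105) or 3 (0.0523) and without 4OHT control replicate 2 (0.0817). *Zfp42* lost it without KO replicate 2 (0.167) or 3 (0.148) and without 4OHT control replicate 2 (0.111) or 3 (0.174). In this comparison the genes around *Nanog* had a median of 0.56, above the 0.30 of *Nanog* itself, and those around *Klf2* and *Zfp42* had medians of -0.24 and -0.21.

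Much of the spread within groups followed the replicate number. In the fit with the block, the term for the replicate number passed an adjusted p of 0.05 for 8 of 10 factors (all but *Sox2* and *Klf2*), against 55.9% of all tested genes. *Zfp42* had the widest spread, with a mean deviation from the group mean of -0.43 on the log2 scale in replicate 1 against 0.26 and 0.16 in replicates 2 and 3. Replicate 1 was the lowest in all 3 groups for *Zfp42* and *Pou5f1*, and the highest for *Esrrb* and *Tfcp2l1*, against 29.4 and 30.0% of all tested genes.

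*Tfcp2l1* deviated by 0.26, 0.11 and -0.37 in replicates 1, 2 and 3. Replicate 3 was the lowest in all 3 groups for 4 factors, *Nanog*, *Esrrb*, *Tfcp2l1* and *Tbx3* (background 11.9%). Replicate 2 was the highest in all 3 groups for *Klf4*, *Tbx3*, *Nr5a2* and *Zfp42* (background 4.31%). For 6 of 10 factors the range of the replicate-number means was wider than that of the group means, against 62.9% of all tested genes. The factors did not all move one way between replicates: in replicate 3 *Tfcp2l1* and *Tbx3* were low while *Zfp42* was above its group mean.

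**Figure D4:**
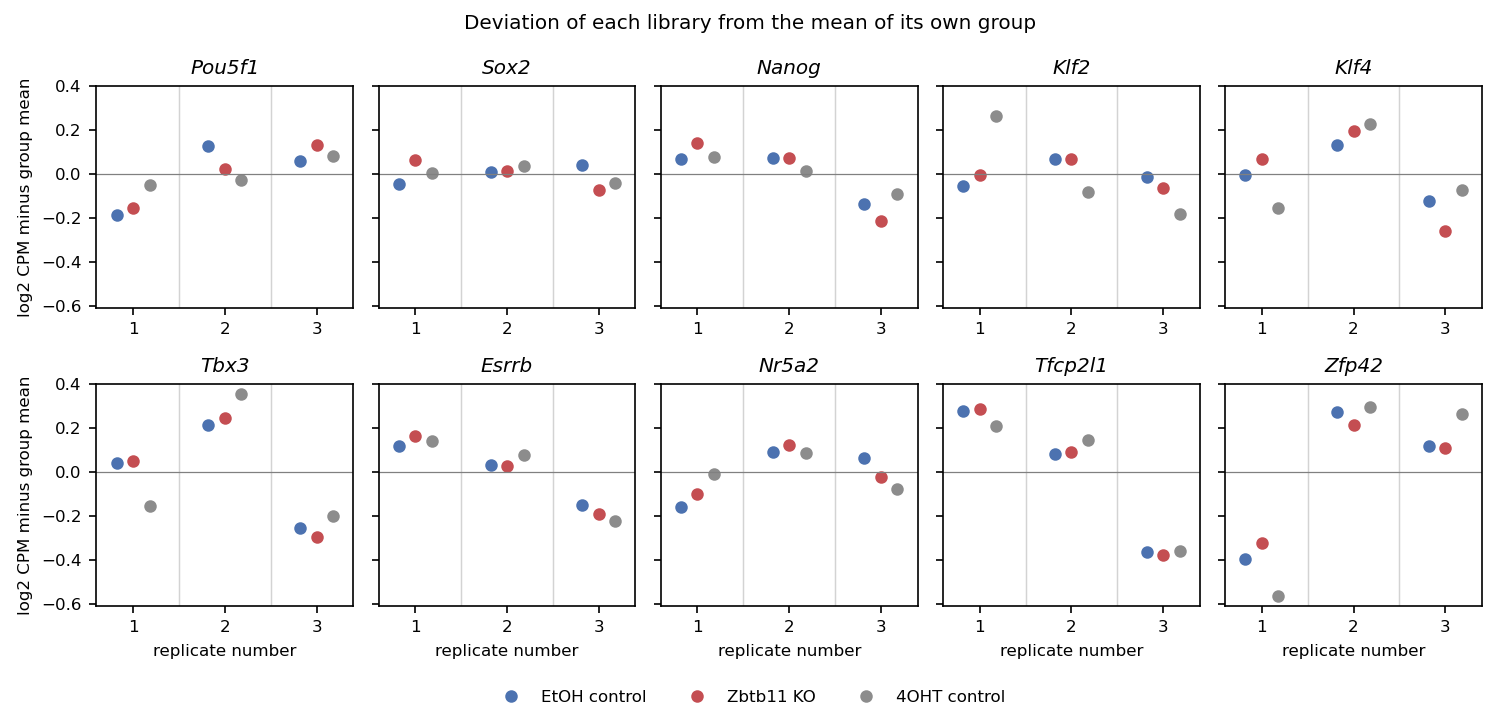
Deviation of each library from the mean of its own group, in log2 CPM (vertical axis), by replicate number (horizontal axis) and group (colour). In all 3 groups replicate 3 lies lowest for Tfcp2l1 and Tbx3, and replicate 1 lowest for Zfp42. Klf2 in replicate 1 of the 4OHT control lies apart from the other groups.

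The wider network was described by lists of genes for LIF to Stat3 signalling (11 genes), other ESC genes (21) and FGF, ERK and Wnt genes of the exit from naive pluripotency (17), all tested. Of these 49 genes, 0 passed the threshold in KO against EtOH control cells (background 0.899%). With the replicate number as a block 1 passed (background 2.25%), *Il6st*, named after its values were seen. It encodes gp130, the signalling chain of the LIF receptor, and was at 118, 125 and 121 CPM in the EtOH control and 99.2, 113 and 101 CPM in KO cells. All 3 KO libraries were below all 3 controls, where 7.21% of tested genes had no overlap in either direction. The fold was 0.859 (0.797 to 0.925, adjusted p = 0.0201 with the block). With replicates 2 and 3 and the block the adjusted p was 0.095, and 0 of the 49 genes passed in 5 of the 6 fits that kept the block and left out 1 library, the exception being the fit without EtOH control replicate 2. The median log2 fold changes of the lists were -0.03, -0.05 and -0.03, beside 0.00 for the 10 factors and for all tested genes.

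Between the 4OHT and EtOH controls 7 of the 49 genes passed with no block, where 4.06% of all tested genes did, and 27 with it, where 33.6% did. In the LIF list, *Pim3* was higher (fold 1.48, adjusted p = 0.0116) and *Socs3*, a feedback inhibitor that Stat3 induces, lower (0.71, adjusted p = 0.0294). *Socs3* was at 289, 279.8 and 284 CPM in the EtOH control and 229, 176 and 201 CPM in the 4OHT control. Among ESC genes *Mybl2*, a cell cycle regulator, was higher (fold 2.49, adjusted p = 0.000161) and *Dppa3*, which marks naive cells and the germ line, lower (0.343, adjusted p = 0.000861). *Dppa3* is a neighbour of *Nanog* on chromosome 6 and was at 53.6, 53.5 and 45.8 CPM in the EtOH control and 19.8, 19.1 and 13.7 CPM in the 4OHT control. Its log2 fold change was -1.54, and -0.98 after subtracting the median of the genes within 10 Mb. Among genes of the exit, *Axin2*, a target of Wnt signalling, was higher (fold 1.80, adjusted p = 0.0136) and *Gsk3b*, the kinase that restrains it, lower (0.803, adjusted p = 0.04999). The remaining gene, named because it completes the count, was *Fgfr1* on chromosome 8 (fold 1.3, adjusted p = 0.0411). Its log2 fold change was 0.38, and 0.14 after subtracting the median of the genes within 10 Mb. Between *Zbtb11* KO cells and the 4OHT control 6 of 49 passed (background 6.45%), and 31 with the block (background 34.9%). *Dppa3* (fold 2.82) and *Socs3* (1.37) were higher in KO cells, and *Mybl2* (0.4), *Axin2* (0.575), *Pim3* (0.682) and *Il6st* (0.746) lower.

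Markers of other cell states were also examined, most of them at low levels. *Fgf5* was at or under 0.444 CPM in all 9 libraries, and *T* and *Cdx2* at or under 0.63 and 0.348 CPM. Of 7 formative and primed genes 5 were tested, and 0 passed in the fit of all replicates with no block. With the block 1 was higher (*Otx2*, fold 1.46) and 2 lower (*Dnmt3a*, 0.868, and *Lef1*, 0.741) in the 4OHT control than in the EtOH control (background 33.6% in either direction). Another 2 calls were lower in KO cells than in the 4OHT control (*Otx2*, 0.61, and *Zic2*, 0.831, background 34.9% in either direction). These last 2 also passed with replicates 2 and 3 and no block (background 18.7%), and 0 passed between KO and EtOH control cells in these fits. The summed level of the formative and primed genes was 359 to 657 CPM in KO cells, 386 to 688 CPM in the EtOH control and 337 to 749 CPM in the 4OHT control. Neural markers summed to 99.6 to 166 CPM over the libraries, with 0 of 3 tested genes called. Endoderm markers summed to at most 16.7 CPM and trophectoderm markers to at most 8.10 CPM in any library. With the block 1 of 3 tested endoderm genes, *Dab2*, was lower in the 4OHT control than in the EtOH control (background 33.6%). It was higher in KO cells than in the 4OHT control (background 34.9%). Fibroblast markers summed to 17.4 to 28.0 CPM over the libraries. Of the 4 tested, *Col1a2* was lower in the 4OHT control than in the EtOH control (fold 0.25, adjusted p = 0.00506 with no block, background 4.06%). With the block 2 others, *Twist1* and *Thy1*, passed as higher in the 4OHT control (background 33.6%). Their log2 fold changes with no block were 0.56 and 0.59. In KO cells against the 4OHT control *Col1a2* was higher with no block (log2 fold change 1.96, background 6.45%). With the block all 4 passed there, *Col1a1* and *Col1a2* higher and *Twist1* and *Thy1* lower (background 34.9% in either direction). Between KO and EtOH control cells 0 passed. Markers of primitive streak and mesendoderm summed to 3.53 to 4.22 CPM in KO cells, 4.02 to 4.74 CPM in the EtOH control and 5.51 to 5.76 CPM in the 4OHT control. *Eomes*, the only one tested, at 1.99 to 3.70 CPM, was lower in KO cells than in the 4OHT control (fold 0.598, adjusted p = 0.0287, background 6.45%). With the block it was also higher in the 4OHT control than in the EtOH control (log2 fold change 0.51 with no block, background 33.6%). Between KO and EtOH control cells *Eomes* did not pass (log2 fold change -0.23). The part of any rare differentiated cells in the factors' levels was not tested, and in bulk RNA fewer cells with a transcript and less transcript per cell cannot be told apart.

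Zbtb11 itself was found at the promoter of 1 of the 10 factors, *Pou5f1*, where 28.1% of the tested genes had a high-confidence peak. High-confidence peaks, of which there were 7500, were those shared by the Zbtb11 antibody and FLAG-Zbtb11 peak sets. The *Pou5f1* peak lay at chr17:35641355-35642554 of mm9, with its centre 1028 bases upstream of the gene start, and it was in the peak lists of both the Zbtb11 antibody and FLAG-Zbtb11. No FLAG control peak lay at any of the 10 promoters, and the nearest one to the *Pou5f1* start was 235.9 kb away. *Nr5a2* had the only other peak close to a start. It lay inside the gene, outside the promoter as defined here, and it counted only when promoters were widened to 5 kb on each side (2 of 10, background 32.3%). Of the other definitions tried, a promoter of 1 kb on each side (background 28.0%), the start of every transcript (31.1%), all antibody peaks (33.0%), all FLAG-Zbtb11 peaks (33.5%) and a peak centre inside the promoter (25.5%) each gave 1 of 10. FLAG control peaks lay at 0.216% of promoters of tested genes. To show what the promoter site holds, the central 300 bases of the *Pou5f1* peak are given from the mm9 reference, plus strand, chr17:35641804-35642103. Capitals mark GGAAG on either strand, the centre of the site that ETS proteins such as GABPa recognise.
*Pou5f1* peak: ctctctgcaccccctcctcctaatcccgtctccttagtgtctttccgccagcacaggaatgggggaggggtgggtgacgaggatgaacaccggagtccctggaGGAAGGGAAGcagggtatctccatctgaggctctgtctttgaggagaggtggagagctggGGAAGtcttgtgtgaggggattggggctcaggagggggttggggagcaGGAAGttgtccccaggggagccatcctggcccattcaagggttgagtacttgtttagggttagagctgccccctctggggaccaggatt

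The *Pou5f1* window held GGAAG 4 times, and 88.2% of all 7500 peaks held it in their central 300 bases. The longer CCGGAAG, the letters of the GABPa site, was neither in this window nor in the rest of the peak. Of all peaks 29.4% held it centrally and 39.1% anywhere in the peak. The whole peak also held neither CAAGGTCA, a site of Esrrb and Nr5a2 type receptors, nor the octamer ATGCAAAT, which Oct4 recognises. Of all peaks 7.48% held CAAGGTCA anywhere (1.48% centrally) and 4.84% held ATGCAAAT anywhere (0.893% centrally). All were searched on both strands, and GGAAG lies within CCGGAAG. That these letters are absent says only that they are not in this peak.

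Coverage at both peaks was below that of the median peak in all 7 libraries. Normalised coverage at the *Pou5f1* peak was 34.5, 11.2, 49.0 and 31.9 in Zbtb11 antibody replicates 1 to 4, a mean of 31.7 ± 15.6 (SD, n = 4) and rank 6331 of 7500. In FLAG-Zbtb11 it was 23.7, 54.1 and 42.2, a mean of 40.0 ± 15.3 (SD, n = 3) and rank 5596. The libraries disagreed, with the second Zbtb11 antibody library the lowest and the second FLAG-Zbtb11 library the highest. At the *Nr5a2* peak coverage was 26.7, 33.7, 36.9 and 31.9 with the antibody (32.3 ± 4.29, rank 6278) and 31.7, 39.5 and 40.5 with FLAG (37.2 ± 4.83, rank 5841), a tighter set. The median of all peaks was 71.3 over the antibody libraries and 65.6 over the FLAG libraries.

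**Figure D5:**
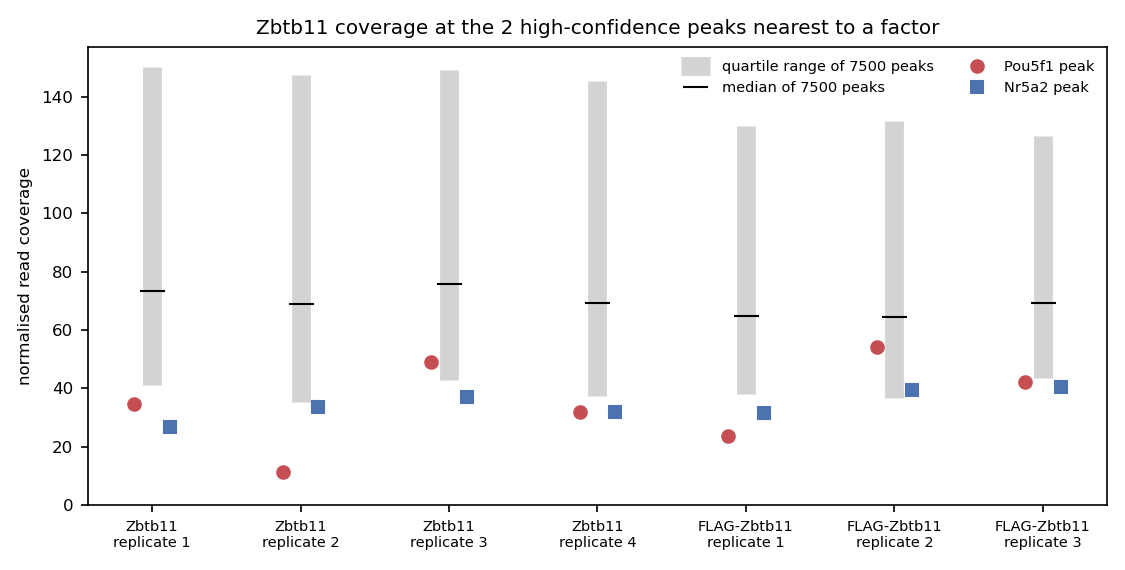
Normalised ChIP-seq coverage (vertical axis) at the high-confidence peaks upstream of Pou5f1 (red) and inside Nr5a2 (blue) in each library, beside the median (black line) and quartile range (grey) of all 7500 peaks. Both peaks lie below the median in all 7 libraries.

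The other factors lay far from high-confidence peaks, with the nearest centre 39.3 kb away for *Tfcp2l1*, 57.3 kb for *Nanog*, 78.9 kb for *Klf2*, 104.0 kb for *Sox2*, 119 kb for *Esrrb*, 169 kb for *Klf4*, 631 kb for *Tbx3* and 1744 kb for *Zfp42*. Other peaks were in the list of only 1 of the ChIPs. The Zbtb11 antibody gave 2 peaks inside *Esrrb*, 105 and 141 kb from its start, 1 inside *Zfp42*, 6.9 kb from its start, and 1 at 7.8 kb upstream of *Klf2*. FLAG-Zbtb11 gave 1 at 13.9 kb upstream of *Nanog* and 1 at 17.6 kb downstream of the *Klf4* start. Among the tested genes of the wider lists, named here after their peaks were seen, a promoter peak was found for 1 of 11 LIF genes (*Lifr*), 3 of 21 other ESC genes (*Dppa2*, *Dppa4* and *Fbxo15*) and 3 of 17 genes of the exit (*Spry2*, *Etv4* and *Zfp706*), beside 28.1% of all tested genes.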

How the data were processed

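RNA-seq counts per gene were used as deposited. The authors trimmed paired-end reads from directional, rRNA-depleted libraries, aligned them with STAR and counted them with HTSeq, and the files hold raw counts, not normalised. Between 25.3 and 31.6% of reads were assigned to no gene and 0.79 to 0.905% were ambiguous. For ChIP-seq the authors aligned reads to mm9 with Bowtie (1.1.2), called peaks with MACS2 in the IDR pipeline over replicates, and deposited peak positions and coverage (signal) over 1200-base high-confidence peaks, normalised with DiffBind. Gene coordinates and symbols are those of GENCODE vM1 (mm9), and sequences come from the same build. The input libraries were not used here.

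Counts were scaled with TMM and tested with edgeR (4.0.16) in 1 fit of all 9 libraries, two-sided, with Benjamini-Hochberg adjustment over 14346 genes (14172 with replicates 2 and 3, more than 1 CPM in at least 2 libraries). Folds are model estimates with 95% intervals. Alternatives used DESeq2 (1.42.0), other scalings, filters and fits, and left out replicates or libraries. The replicate number was tried as a block, though no label pairs the samples. Deviations from group means correlated at 0.43 to 0.82 between libraries of the same number and at -0.75 to 0.526 between those of different numbers. Libraries of replicate 1 correlated at 0.79 to 0.82 with each other. Numbers 2 and 3 were not resolved as pairs: EtOH control replicate 2 correlated at 0.526 with 4OHT control replicate 3 and at 0.43 with 4OHT control replicate 2. Calls with the block take the numbers as pairs. P-values measure the spread between these replicates, which may be partly technical. The tests were checked on simulated counts. Recurring exon stretches were found with blastn (2.17.0). The 10 factors and all lists were chosen with earlier results of these data known. Apart from the factors, the genes named were to be those with the largest change past the threshold in each direction per list and comparison, and the 2 genes with the pattern most like that of each factor called, of which there were none without the block. The marker *Sox1* had no record, and *Pou3f1* has overlapping records and no interpretable counts. Of the count files' identifiers 37310 were paired with a symbol, and no libraries were identical.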

Additional observations from a re-analysis of the deposited data

How the results depend on the processing

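For *Zbtb11* KO against EtOH control cells, 0 of 10 factors were called under each alternative run, and 0 or 1 of the 49 wider genes, 1 of them with the replicate block. In the other comparisons the counts depended on how replicates were treated. For the 4OHT control against the EtOH control, and for *Zbtb11* KO against the 4OHT control, DESeq2 called 3 and 1 factors. The replicate block called 7 and 8 factors and 27 and 31 wider genes, and 6, 7, 24 and 29 with replicates 2 and 3 only. Leaving out replicates or single libraries with no block gave 0 to 5 and 0 to 4 factors and 0 to 17 and 1 to 20 wider genes, with the highest counts without replicate 1. With the block and 1 library left out, chosen after seeing the data, the counts were 5, 6 or 7 factors in both, 23, 24, 26 or 27 wider genes in the first and 23, 25, 26, 27, 28 or 29 in the second. For DESeq2 and for the fits without a single library, shares over all tested genes were not counted. With only the groups compared in the fit, 2 wider genes were called in place of 7. Promoters of 5 kb on each side gave 2 factors with a Zbtb11 peak in place of 1, and the other 5 definitions gave 1. Of 780 values for single factors, 652 stayed below the threshold and within 1 standard error, 115 passed it, and 13 moved by more without passing it. Over all tested genes the replicate block raised the calls from 129 to 323 for KO against EtOH control, from 583 to 4816 for 4OHT control against EtOH control and from 925 to 5010 for KO against 4OHT control. The causes of these dependences were not tested.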

Other observations

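For each factor called with the replicate block, a choice made after the values were seen, the protein-coding genes with the most similar profile were those with the smallest root mean square difference of centred log2 CPM over the 9 libraries. *Tfcp2l1* was closest to *Kit* (0.0832) and *Phf19* (0.115), where its own standard deviation over the libraries was 0.345. *Zfp42* was closest to *Erf* (0.0511) and *Socs2* (0.0762), with a standard deviation of 0.347. *Nanog* was closest to *Zbtb44* (0.0584) and *Mdfic* (0.0594), and *Klf2* to *Ppm1b* (0.0783). *Klf4* was closest to *Nagk* (0.0902), *Nr5a2* to *Gatsl3* (0.0496), *Pou5f1* to *Ctbp1* (0.0385) and *Esrrb* to *Shisa5* (0.0444).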
